A study of Homo sapiens with 18 samples.

Results

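The DPYSL family, also called the collapsin response mediator proteins, was followed through RNA-seq of 3 human lung cell lines with and without irradiation. Its members were taken by gene symbol, DPYSL2, DPYSL3, DPYSL4, DPYSL5 and CRMP1, and make up 5 of the 18475 genes in the table. All 18 columns of the table were used. The family was taken up because the study had already drawn attention to DPYSL4 in these same libraries, so the response of DPYSL4 given here is no independent support for that choice.

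The study exposed BEAS-2B, H446 and A549 cells to X-rays at 10 Gy, with 3 control and 3 irradiated libraries per line. The irradiated libraries are labelled 24 h, and the controls are titled "before" with no time given. BEAS-2B is an immortalized line from normal bronchial epithelium, H446 was derived from a small cell lung cancer and A549 from a lung adenocarcinoma. All 6 groups carry the genotype label wild type, and each tissue state stands on 1 cell line. Whether the 3 libraries of a group came from separate cultures is not stated, so each p-value measures only the spread between these libraries. The values are treated as FPKM, fragments scaled by transcript length and by the mapped reads of the library, and the depth was estimated at 13200000 to 15300000 reads per library.

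Collapsin response mediator proteins are cytosolic phosphoproteins that bind tubulin and other cytoskeletal proteins and are best known from growing axons, where they carry the signal of semaphorins from the cell surface to the microtubules. They resemble the pyrimidine-degrading enzyme dihydropyrimidinase in sequence but lack its catalytic activity, and kinases such as CDK5 and the GSK3 enzymes control their binding to partners. DPYSL4 has been described as a p53-inducible gene, and several members have been studied in lung tumours for their relation to migration and invasion.

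The line labels were compared with marker genes first. Of 5 epithelial markers, 3 or 4 had an FPKM of at least 1 in each of the 18 libraries, and KRT8, a keratin of simple epithelia, was the most abundant at 500 to 596 in BEAS-2B, 1246 to 1393 in H446 and 519 to 595 in A549 libraries. CDH1, the epithelial cadherin, lay under 1 in the BEAS-2B and H446 libraries. KRT17, a basal airway keratin, reached 159 to 188 in BEAS-2B and 721 to 915 in H446 libraries, while TP63 was the most abundant basal marker in A549 libraries at no more than 0.94. The 4 alveolar type 2 markers were under 1 in all 18 libraries, A549 included. In H446, the line from a neuroendocrine tumour, the markers CHGA, SYP and NCAM1 were at or near 0, with a highest value of 0.29. UCHL1, a further neuroendocrine marker, lay at 22.51 to 23.51 in the H446 controls and 15.3 to 16.01 in the irradiated H446 libraries, below its 258 to 285 in BEAS-2B and 495 to 565 in A549 libraries. ENO2 lay at 20.33 to 21.04 in the H446 controls and 14.68 to 15.9 in the irradiated ones. H446 is therefore named here by its label alone. Markers of other cell types were low next to the keratins: the fibroblast list summed to 10.7 to 13.3 in BEAS-2B and A549 libraries and 23.7 to 29.7 in H446 libraries, with LUM the most abundant there, the leukocyte marker PTPRC was at or near 0 beside CD68 at 7.67 to 33.5, and the endothelial marker PECAM1 reached 3.4 to 4.03 in H446 libraries alone.

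The irradiated BEAS-2B replicate 2 stood apart from the other irradiated BEAS-2B libraries. Over 20 listed p53 target genes, the median log2 difference from the mean of the line's controls was 0.85 and 1.01 in replicates 1 and 3 and 0.06 in replicate 2. CDKN1A, the p21 inhibitor of cyclin-dependent kinases, had an FPKM of 79.93, 86.36 and 86.08 in the BEAS-2B controls and 309.73, 102.24 and 487.79 after irradiation. The same median was 0.92, 0.95 and 0.91 in the irradiated A549 libraries and 0.03, -0.05 and -0.04 in the irradiated H446 libraries. In A549 cells, 19 of the 20 genes rose and 1 fell, with a median log2 fold change of 0.93 beside -0.004 over all 11993 genes tested, of which 51.7% were called. In BEAS-2B cells, limma called 0 of the 20 genes with all libraries, where 16 had an unadjusted p under 0.05 and the median was 0.65, and 18 higher without replicate 2, where the median was 0.89. Replicate 2 was singled out by these same genes, so the 18 calls follow in part from that choice and describe the other libraries without being a test of the response. Over all genes, limma called 0 of 11734 with that library, where 1446 had an unadjusted p under 0.05, and 233 of 11680 without it, 224 of them higher. Replicate 2 also had the strongest relation to base composition among the 18 libraries. The Spearman correlation across genes between a gene's deviation from its mean and the GC content of its transcript was -0.629, 0.013 and -0.379 in the BEAS-2B controls, against 0.449, 0.705 and -0.312 in the irradiated replicates 1, 2 and 3, a wide spread in both groups. Responses of the members and lists in BEAS-2B cells are therefore given with all libraries and without replicate 2. Its part in them beyond those values was not tested.

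**Figure D1:**
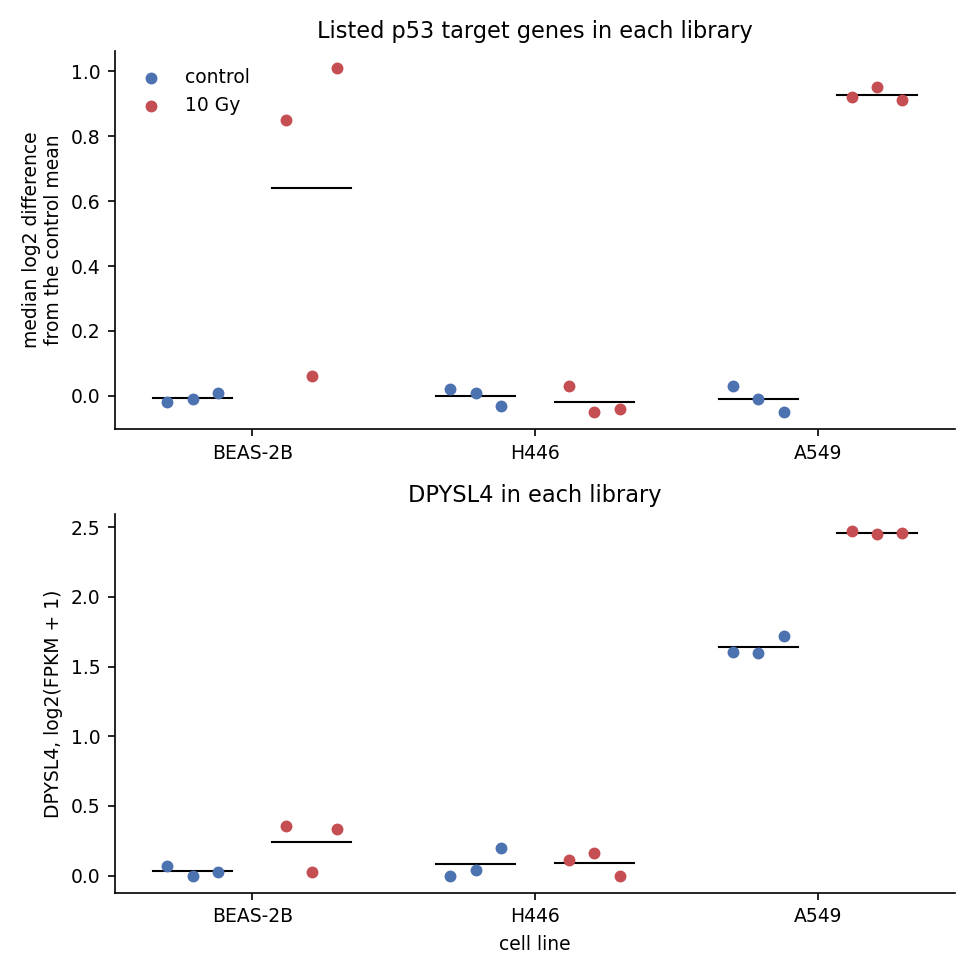
Median log2 difference of 20 listed p53 target genes from the control mean of the line (top) and DPYSL4 as log2(FPKM + 1) (bottom), 1 point per library, with a bar at the mean of 3 libraries. The irradiated BEAS-2B replicate 2 lies at 0.06 in the upper panel, next to 0.85 and 1.01, and its DPYSL4 value lies among those of the controls.

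Before irradiation, DPYSL2 made up most of the family's RNA in BEAS-2B and H446 cells, and DPYSL3 in A549 cells. In BEAS-2B controls, DPYSL2 held 97.3% ± 0.43 (SD, n = 3) of the summed FPKM of the 5 members, a sum of 11.5 ± 2.0. In H446 controls, the sum was 23.3 ± 0.46, and DPYSL2 held 71.9% ± 0.6 and CRMP1 21.8% ± 0.51. In A549 controls, the sum was 163 ± 1.86, with DPYSL3 at 77.6% ± 0.33 and DPYSL2 at 15.2% ± 0.05. After irradiation, the leading member had the same place in each line, at 95.8% ± 1.63, 68.8% ± 3.73 and 77.5% ± 1.34. In bulk RNA, fewer cells expressing a gene and less RNA per cell cannot be told apart.

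**Figure D2:**
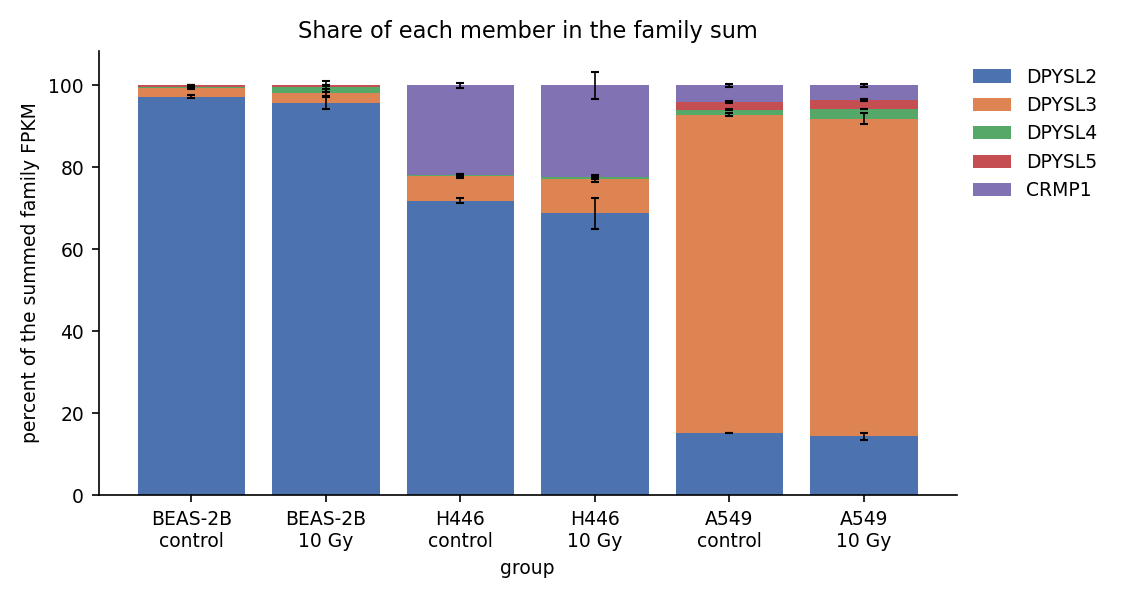
Share of each member in the summed FPKM of the 5 family members, in percent, as stacked means of 3 libraries per group with error bars of 1 SD. DPYSL2 fills most of the BEAS-2B and H446 bars, and DPYSL3 fills 77.6% of the A549 control bar.

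The levels of the members in unirradiated cells were compared between the lines in 1 limma fit of the 9 control libraries, whose 3 comparisons share these controls. A large share of all 12854 genes tested differed between each pair of lines, 82.6% between H446 and BEAS-2B, 85.1% between A549 and BEAS-2B and 84.4% between H446 and A549. The counts of members called, 3, 5 and 5 of 5, stand against that background. DPYSL4 and DPYSL5 passed the filter of an FPKM of at least 1 in 3 libraries only through A549 cells, so their differences from A549 were fixed by the filter and add nothing to the counts. CRMP1 and DPYSL3 lay under 1 in all BEAS-2B controls and passed through the other lines, so their differences from BEAS-2B add nothing either. That leaves DPYSL2 in the comparisons with BEAS-2B, and DPYSL2, DPYSL3 and CRMP1 between H446 and A549.

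DPYSL3 had the widest range of levels among the members across the controls. Its control FPKM was 0.27, 0.29 and 0.18 in BEAS-2B, 1.53, 1.37 and 1.29 in H446, and 127.86, 124.51 and 127.67 in A549 cells, which ranks it 494th of 18475 genes by mean in A549. The groups did not overlap and lay in the order A549, H446, BEAS-2B. The log2 difference for H446 against A549 was -5.74 (SE 0.0618, adjusted p = 5.58e-16). No test is read for the step to BEAS-2B, since DPYSL3 passed the filter through the other lines. DPYSL2 followed the same order with smaller steps, at 9.29 to 13.14 in BEAS-2B, 16.51 to 17.01 in H446 and 24.49 to 25.18 in A549 controls. The log2 difference was 0.56 for H446 against BEAS-2B (SE 0.0878, adjusted p = 6.03e-05) and -0.54 for H446 against A549 (SE 0.0878, adjusted p = 7.84e-05), again with no overlap between 3 libraries and 3.

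CRMP1 was listed at 0 in all 6 BEAS-2B libraries, so no fold is given against that line. Its control FPKM was 5.25, 5.18 and 4.85 in H446 and 6.56, 7.00 and 6.25 in A549 cells, lower in H446 in 3 of 3 libraries, with a log2 difference of -0.32 (SE 0.0616, adjusted p = 0.000341). DPYSL4 and DPYSL5 were highest in A549 controls at 2.12 ± 0.156 and 2.997 ± 0.232 (SD, n = 3). In the other lines, their control means were 0.023 ± 0.025 and 0.047 ± 0.031 in BEAS-2B, and 0.06 ± 0.079 and 0.013 ± 0.006 in H446 cells. H446 and BEAS-2B were next to each other in this order and were not called different, with a log2 difference of 0.05 for DPYSL4 (adjusted p = 0.519) and -0.05 for DPYSL5 (adjusted p = 0.491). An FPKM of 0.05 of DPYSL4 amounted to about 2 reads in the BEAS-2B library that had it, so levels this low were not distinguishable at this depth.

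**Figure D3:**
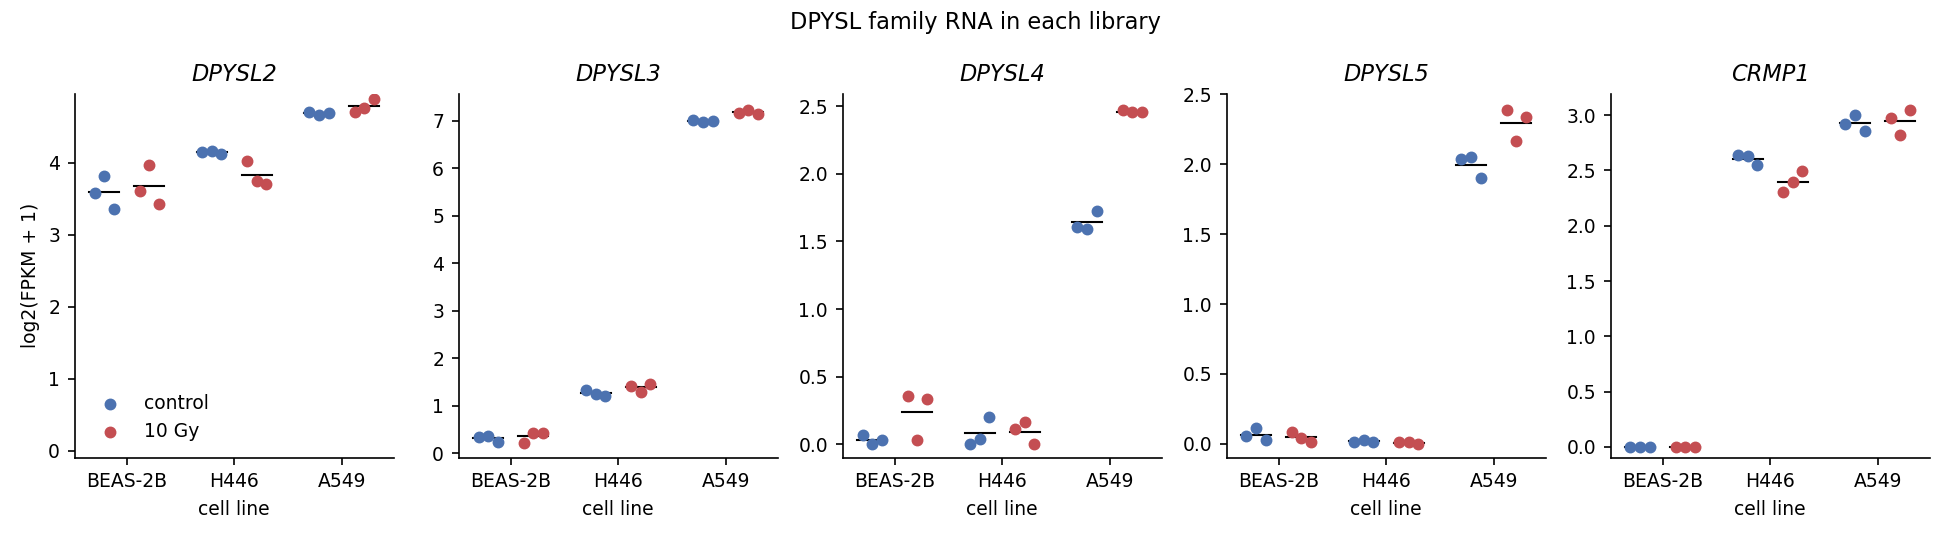
FPKM of each family member in every library as log2(FPKM + 1), by cell line and treatment, 1 point per library and a bar at the mean of 3. The vertical scale differs between panels, and A549 cells hold the highest levels of the 5 members.

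After irradiation, the family was compared within each line. In A549 cells, limma called 6202 of 11993 genes (51.7%), 3030 of them higher (25.3%). All 5 members were tested there and 3 were called, DPYSL3, DPYSL4 and DPYSL5, all higher; under quantile normalization DPYSL2 was called higher too. Of the cell type markers tested in the same A549 libraries, 1 of 3 neuroendocrine markers rose, ENO2 (0.71, adjusted p = 6.09e-07), as did 1 of 4 epithelial markers, CDH1 (0.49, adjusted p = 7.86e-05), and the leukocyte marker CD68 (0.16, adjusted p = 0.0363), while 0 of 2 fibroblast markers were called, with 1 at an unadjusted p under 0.05. UCHL1 (0.09, adjusted p = 0.0662) had a higher mean and an unadjusted p under 0.05 and was not called. SYP (-0.08, adjusted p = 0.407) and KRT19 (-0.11, adjusted p = 0.1) had a lower mean and were not called. The part of these markers in the A549 results was not tested. In H446 cells, 4407 of 11479 genes were called (38.4%), 2709 of them lower (23.6%), and of the 3 members tested DPYSL2 and CRMP1 were called lower, CRMP1 with a call in 6 of 15 alternatives. In BEAS-2B cells, limma called 0 of 11734 genes (0%) at an adjusted p under 0.05, although 1446 had an unadjusted p below that threshold. The count was 439 with the replicate number as a block, 822 with all 18 libraries in 1 fit, 233 without the irradiated replicate 2 and 1 with no filter, so it depends on these choices. The smallest adjusted p was 0.241. DPYSL2 was the only member tested in that line. With backgrounds of this size, the number of members called is not by itself a result about the family.

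**Figure D4:**
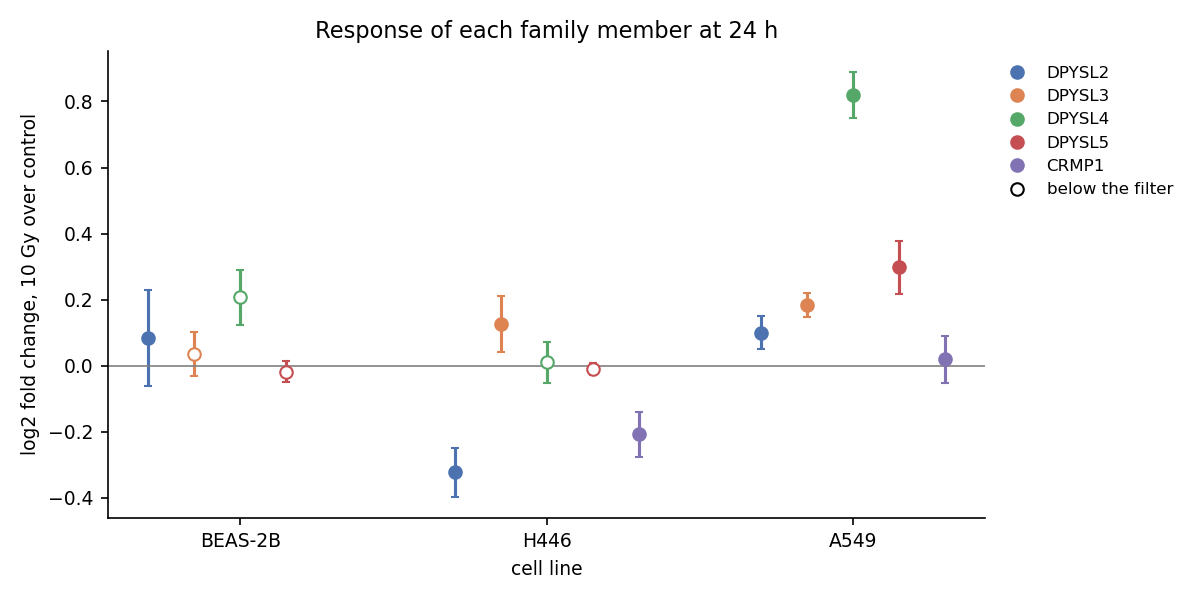
Log2 fold change of each family member at 10 Gy over control in each line, from limma on log2(FPKM + 1), with error bars of 1 SE and 3 libraries per group. Open symbols are members below the filter on low values, fitted without it; DPYSL4 in A549 cells lies highest, at 0.82.

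DPYSL2 (CRMP2, Entrez 1808), the most studied member, promotes the assembly of tubulin into microtubules. The gene lies at chr8:26514022-26658178 on the plus strand (GENCODE 29, GRCh38). In H446 cells, its FPKM was 16.80, 17.01 and 16.51 in the controls, against 15.29, 12.48 and 12.07 in the irradiated libraries. The groups did not overlap, and the irradiated replicate 1 lay closest to the controls. The log2 fold change was -0.32 (SE 0.0742, adjusted p = 0.00679), lower in 3 of 3 libraries, and 850 of the 11479 genes tested (7.4%) had a lower one. DPYSL2 kept its direction and its call under all 15 alternatives run for this value, between -0.42 and -0.26. In A549 cells, its FPKM was 25.18, 24.49 and 24.91 in the controls, against 25.28, 26.30 and 28.65 in the irradiated libraries. These groups did not overlap either, although the lowest irradiated library lay close to the highest control, and the log2 fold change of 0.10 (SE 0.0494, adjusted p = 0.111) was not called. It was called under quantile normalization (0.15, adjusted p = 0.027) and without the irradiated A549 replicate 1 (0.14, adjusted p = 0.0434), in a range of adjusted p from 0.027 to 0.514 over 15 alternatives.

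In BEAS-2B cells, the FPKM of DPYSL2 was 11.01, 13.14 and 9.29 in the controls, against 11.26, 14.65 and 9.82 in the irradiated libraries. The groups overlapped over most of their range, with a log2 fold change of 0.08 (SE 0.146, adjusted p = 0.818) and of -0.065 (SE 0.128, adjusted p = 0.906) without the irradiated replicate 2. The sign of the BEAS-2B value thus rests on that library, and on control replicate 3, without which it was -0.03. The difference between the responses of A549 and H446 cells was 0.42 (SE 0.166, adjusted p = 0.0559) and that between BEAS-2B and H446 cells 0.41 (SE 0.166, adjusted p = 0.0844). Without the irradiated BEAS-2B replicate 2, the latter was 0.26 (adjusted p = 0.222). Neither passed the threshold, so the lower DPYSL2 in irradiated H446 cells is not shown to be particular to that line. Each of the differences was called in 4 of 20 alternatives.

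CRMP1 (Entrez 1400), a mediator of semaphorin signals with a described role in lung cancer invasion, lies at chr4:5748084-5893058 on the minus strand. In H446 cells, its FPKM was 5.25, 5.18 and 4.85 in the controls, against 3.94, 4.26 and 4.64 in the irradiated libraries. The groups did not overlap, and the log2 fold change was -0.21 (SE 0.0688, adjusted p = 0.035), lower in 3 of 3 libraries. This call was kept in 6 of 15 alternatives, over which the adjusted p ran from 0.0248 to 0.402 and the log2 fold change from -0.26 to -0.09. The H446 libraries differed between the groups in their relation to base composition: the Spearman correlation with GC content was 0.459, 0.399 and 0.347 in the controls, against -0.106, -0.473 and -0.496 in the irradiated libraries. The A549 libraries lay between -0.134 and 0.166 and the BEAS-2B libraries, as given above, spread more widely in each group. With the trend on GC content removed from each library, CRMP1 was at -0.09 (adjusted p = 0.402). Cell type markers moved in the same irradiated libraries. The neuroendocrine markers UCHL1 (-0.53, adjusted p = 9.95e-06) and ENO2 (-0.42, adjusted p = 9.22e-05) were lower, as were 2 of 4 epithelial markers tested, KRT18 (-0.20, adjusted p = 0.0229) and KRT19 (-0.32, adjusted p = 0.0131). The basal marker KRT17 (0.21, adjusted p = 0.011) and 1 of 4 fibroblast markers, LUM (0.30, adjusted p = 0.00135), were higher. The part of these markers in the H446 results was not tested. In A549 cells, the groups overlapped, CRMP1 running from 6.25 to 7.00 in the controls and from 6.06 to 7.25 in the irradiated libraries, with a log2 fold change of 0.02 (SE 0.0708, adjusted p = 0.836). The difference between the A549 and H446 responses was 0.23 (SE 0.0948, adjusted p = 0.0715). It was called in 2 of 19 alternatives and was 0.12 (adjusted p = 0.368) after GC removal.

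DPYSL3 (CRMP4, Entrez 1809), a member that binds actin as well as tubulin, lies at chr5:147390811-147510056 on the minus strand. In A549 cells, its FPKM was 127.86, 124.51 and 127.67 in the controls, against 142.24, 148.83 and 140.94 in the irradiated libraries. The lowest irradiated library was above the highest control by more than the range of the controls. DPYSL3 rose by a log2 fold change of 0.18 (SE 0.0358, adjusted p = 0.00109), higher in 3 of 3 libraries and called in all 15 alternatives. In H446 cells, its FPKM was 1.53, 1.37 and 1.29 in the controls, against 1.68, 1.43 and 1.74 in the irradiated libraries. These groups overlapped, with a log2 fold change of 0.13 (SE 0.0841, adjusted p = 0.259). In BEAS-2B cells, DPYSL3 was below the filter at 0.16 to 0.34 in the 6 libraries, with an exact two-sided permutation p of 0.6, and the fit without the filter gave 0.04 (adjusted p = 0.857) with all libraries and 0.001 (adjusted p = 0.998) without the irradiated replicate 2. The response of A549 cells did not differ by test from that of H446 cells (0.06, SE 0.0966, adjusted p = 0.684). BEAS-2B minus A549 was -0.15 (SE 0.0966, adjusted p = 0.27), and -0.18 (adjusted p = 0.182) without the irradiated BEAS-2B replicate 2. With DPYSL3 near 0 in BEAS-2B cells, a change there is held down on the log2(FPKM + 1) scale. That comparison is therefore not read as a result.

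DPYSL4 (CRMP3, Entrez 10570) lies at chr10:132186900-132205776 on the plus strand. In A549 cells, its FPKM was 2.04, 2.02 and 2.30 in the controls, against 4.54, 4.48 and 4.49 in the irradiated libraries, or 2.12 ± 0.156 and 4.503 ± 0.032 (SD, n = 3). At the estimated depths these values amount to about 74.4 to 85.1 reads per control library and 161 to 173 per irradiated library. The irradiated libraries lay close together and far above the highest control. DPYSL4 rose by a log2 fold change of 0.82 (SE 0.0695, adjusted p = 1.76e-06), higher in 3 of 3 libraries, a ratio of mean FPKM of 2.12. Of the 11993 genes tested in A549 cells, 104 (0.87%) had a higher log2 fold change. The call was kept in all 15 alternatives, at 0.77 to 1.05.

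In H446 cells, DPYSL4 was below the filter at 0 to 0.15 in the 6 libraries, and the fit without the filter gave 0.01 (adjusted p = 0.932). In BEAS-2B cells, the irradiated replicates 1 and 3 held 0.28 and 0.26, about 11.2 and 10.5 reads, and the other 4 libraries 0.05 or less, about 2 reads at most. Replicates 1 and 3 are the irradiated BEAS-2B libraries with medians of 0.85 and 1.01 over the p53 target genes. Without the irradiated replicate 2, the fit without the filter gave a log2 fold change of 0.31 (SE 0.033, adjusted p = 0.0212), against 0.21 (SE 0.084, adjusted p = 0.459) with it, higher in 2 of 2 libraries and in 2 of 3. The library left out was picked for its p53 target values and has DPYSL4 at the control level, so the smaller p is conditional on that choice and is not taken as a call. Over 7 alternatives, the adjusted p ran from 0.0212 to 0.939. The exact two-sided permutation p with all libraries was 0.3, above the 0.10 that is the lowest such a test over 3 libraries against 3 can give.

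Whether the response of DPYSL4 differed between A549 and the other lines is not settled by these values. DPYSL4 and DPYSL5 entered the fit of differences in response only through their A549 levels, and a change on the log2(FPKM + 1) scale is held down where the level is near 0, as it is for both genes in BEAS-2B and H446 cells. A call of these genes in the comparisons with A549 is therefore not read as a result about the lines. For DPYSL4 with a pseudocount of 0.1 in place of 1, BEAS-2B minus A549 was 0.009 (adjusted p = 0.994) and A549 minus H446 was 0.96 (adjusted p = 0.197). The ratio of mean FPKM after irradiation to that in the controls was 2.12 in A549, 8.01 in BEAS-2B and 1.11 in H446 cells, where the BEAS-2B ratio rests on controls of about 2 reads at most. BEAS-2B minus H446, between lines where DPYSL4 is near 0 in both, was 0.20 (SE 0.113, adjusted p = 0.215) and was not called. It was 0.30 (adjusted p = 0.0369) without the irradiated BEAS-2B replicate 2, on the same choice of library, 0.97 (adjusted p = 0.211) with a pseudocount of 0.1 and -0.095 (adjusted p = 0.714) after GC removal, the 1 alternative of 19 that turned the direction. Of all 13071 genes tested, 34.6% were called in A549 minus H446, 30.6% in BEAS-2B minus A549 and 22.7% in BEAS-2B minus H446. These comparisons share the libraries of each line. DPYSL2 was called in none of them, and DPYSL3 and CRMP1 were not called in A549 minus H446. In BEAS-2B libraries CRMP1 was at 0 and DPYSL3 under 1, and both entered the fit through the other lines. Their comparisons with BEAS-2B are therefore not read.

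DPYSL5 (CRMP5, Entrez 56896), the member least like the others in sequence, lies at chr2:26847747-26950351 on the plus strand. In A549 cells, its FPKM was 3.11, 3.15 and 2.73 in the controls, against 4.23, 3.48 and 4.05 in the irradiated libraries. The groups did not overlap, with the irradiated replicate 2 closest to the controls. DPYSL5 rose by a log2 fold change of 0.30 (SE 0.0803, adjusted p = 0.00811), higher in 3 of 3 libraries, a ratio of mean FPKM of 1.31. The call was kept in all 15 alternatives, at 0.25 to 0.38. In BEAS-2B and H446 cells it stayed below the filter, at no more than 0.08 and 0.02 in any library. The fit without the filter gave -0.02 in BEAS-2B cells both with all libraries (adjusted p = 0.84) and without the irradiated replicate 2 (adjusted p = 0.925). As for DPYSL4, the response in A549 cells is not set against the other lines by test. The difference A549 minus H446 was 0.31 with a pseudocount of 1 and 0.46 (adjusted p = 0.159) with 0.1, and BEAS-2B minus A549 was -0.32 and -0.51 (adjusted p = 0.13). Both were thus larger with the smaller pseudocount but no longer called, and after GC removal A549 minus H446 was not (0.20, adjusted p = 0.0757).

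DPYSL4 and DPYSL5, which rose in A549 cells as DPYSL3 also did, are shown by the promoter sequence of each. The sequences are from RefSeq on build GRCh38.p14, 250 bases before the start and 50 after it. Of the 5 members, 4 had entries, 9 in all. The GC box GGGCGG was searched on both strands, where the other strand reads CCGCCC, and capitals mark it. It occurs in 45% of the 35116 promoters of the table. The DPYSL4 promoter lies at chr10:132186698-132186997 on the plus strand, holds 8 GC boxes, all on that strand, and has a GC content of 79.3%. As many GC boxes were found in 285 promoters (0.81%). A GC content as high was found in 3.3% of promoters, beside a median of 58.7% over all of them. The number of GC boxes was not compared among promoters of like GC content. The first DPYSL5 promoter lies at chr2:26847745-26848044 on the plus strand and holds 1 GC box, on the other strand. A match is a description of the letters and no sign of a bound factor.
DPYSL4 promoter: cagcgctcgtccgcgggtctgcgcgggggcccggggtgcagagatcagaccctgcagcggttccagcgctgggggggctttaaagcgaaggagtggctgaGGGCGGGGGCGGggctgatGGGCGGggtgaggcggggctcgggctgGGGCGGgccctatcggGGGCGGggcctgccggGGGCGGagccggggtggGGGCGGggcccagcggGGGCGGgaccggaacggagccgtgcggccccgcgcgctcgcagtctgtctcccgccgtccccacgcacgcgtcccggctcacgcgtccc
DPYSL5 promoter: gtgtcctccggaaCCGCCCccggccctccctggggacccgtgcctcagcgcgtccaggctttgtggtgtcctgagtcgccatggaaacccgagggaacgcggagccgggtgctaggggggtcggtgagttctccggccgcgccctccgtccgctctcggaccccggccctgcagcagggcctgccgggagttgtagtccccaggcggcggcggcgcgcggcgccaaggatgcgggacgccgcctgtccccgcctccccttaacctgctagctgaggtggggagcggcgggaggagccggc
The p53 consensus decamer was found, on either strand, in 6.63% of all promoters, and a pair of decamers with a spacer of at most 13 bases in 0.0285%. The decamer was in none of the 9 family entries, which says only that it is not in these windows.

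The other promoters varied. Of the DPYSL3 entries, both on the minus strand, the first at chr5:147510019-147510318 held 0 GC boxes and the second at chr5:147453643-147453942 held 3. The 4 CRMP1 entries held 7, 1, 7 and 2. The values of the table are per gene, so which start was in use in these cells cannot be read from them.

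Since the reads were 50 bases long, the likeness of the members to each other bears on whether a read can be assigned. The coding sequences of the GENCODE 29 transcripts were 64.5% to 74.5% identical in pairs, lowest between DPYSL4 and DPYSL5 and highest between DPYSL2 and DPYSL4. No stretch of 50 bases was shared between any pair of the 5 members. DPYSL3 and DPYSL4 shared 0 of their stretches with any other gene, DPYSL2 shared 22 of 7230 (0.3%) with PNMA2, its neighbour, CRMP1 shared 111 of 5817 (1.91%) with EVC, which overlaps it, and DPYSL5 shared 46 of 7026 (0.65%) with 271 other genes. The window of DPYSL4 that CRMP1, DPYSL3 and DPYSL5 match best spans bases 994 to 1043 of its coding sequence and is shown with the matching windows, all on the sense strand of GENCODE 29 transcripts (GRCh38), where capitals mark bases that differ from DPYSL4. CRMP1 and DPYSL3 differ from it at 6 bases each and DPYSL5 at 14. DPYSL2, the member most identical to DPYSL4, was left out of this comparison of windows, so the closest window in the family is not given.
DPYSL4 window: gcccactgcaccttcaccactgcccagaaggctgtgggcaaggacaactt
DPYSL3 window: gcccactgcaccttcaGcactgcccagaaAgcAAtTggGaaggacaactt
CRMP1 window: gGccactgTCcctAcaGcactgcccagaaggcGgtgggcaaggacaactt
DPYSL5 window: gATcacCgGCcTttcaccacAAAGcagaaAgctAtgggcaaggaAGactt

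The study's supplement gives a primer pair for DPYSL4, shown because it bears on how far a measurement of DPYSL4 can be kept apart from its relatives. The forward primer matches bases 1062 to 1080 of the DPYSL4 coding sequence as written, and the reverse primer matches bases 1129 to 1148 as its reverse complement, for a product of 87 bases. The best match of the forward primer in another member had 2 mismatches, in DPYSL2, and that of the reverse primer 4, in CRMP1.
forward primer: caccaacggcattgaggag
reverse primer: accgcgacgaactcattctc

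The genes on either side of DPYSL4 were read as well, because kinases of the STK32 family and proteins of the JAKMIP family flank both DPYSL3 and DPYSL4. By RefSeq gene positions, JAKMIP3 ends 2090 bases before DPYSL4 and STK32C lies 1723 bases after it. In A549 cells, the FPKM of JAKMIP3 was 1.62, 1.91 and 1.95 in the controls, against 3.19, 3.06 and 3.10 in the irradiated libraries. JAKMIP3 rose by a log2 fold change of 0.54 (SE 0.0762, adjusted p = 9.95e-05), higher in 3 of 3 libraries, beside the 0.82 of DPYSL4. STK32C fell in A549 cells, with a log2 fold change of -0.44 (SE 0.0588, adjusted p = 7.42e-05), and in H446 cells, with -0.54 (SE 0.0522, adjusted p = 4.06e-05). The neighbours of DPYSL4 moved in opposite directions in A549 cells. JAKMIP3 was below the filter in the other lines, at 0.03 to 0.06 in BEAS-2B and 0.21 to 0.42 in H446 libraries, so that its response is not compared between the lines. The matching neighbours of DPYSL3, STK32A and JAKMIP2, were under 1 in all 18 libraries, A549 included, where DPYSL3 was high.

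**Figure D5:**
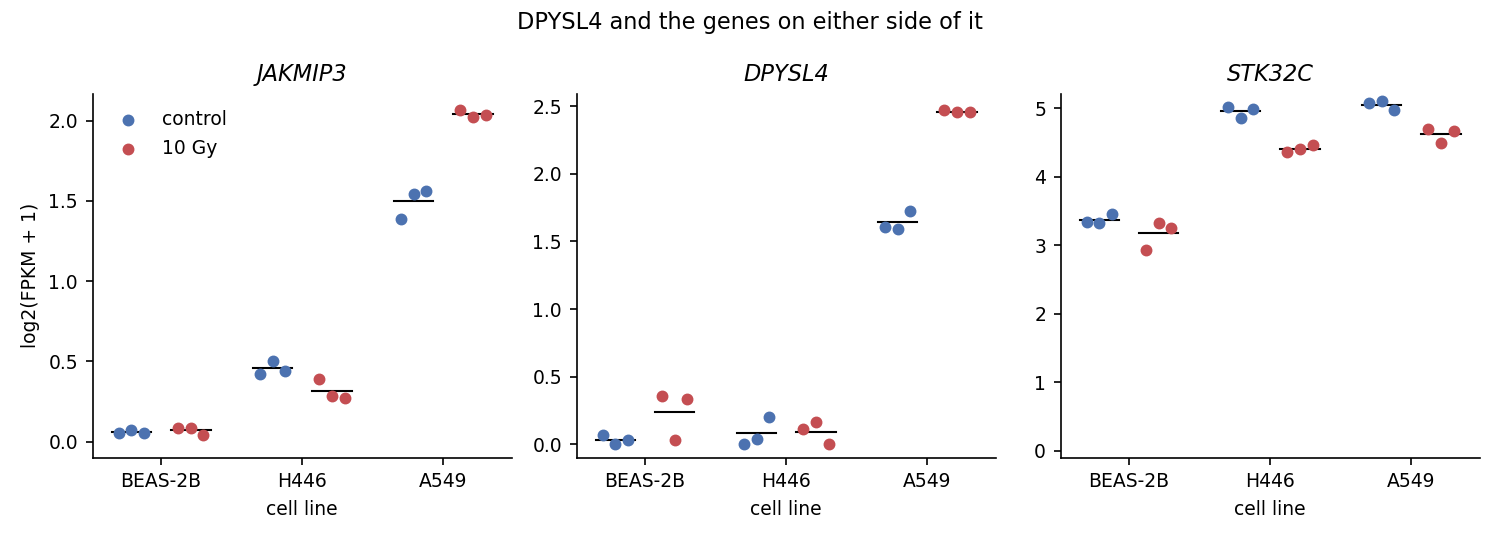
FPKM of JAKMIP3, DPYSL4 and STK32C in every library as log2(FPKM + 1), by cell line and treatment, 1 point per library and a bar at the mean of 3. In A549 cells JAKMIP3 and DPYSL4 lie higher after irradiation and STK32C lies lower.

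Next to DPYSL5 lie CENPA, a centromeric histone, and MAPRE3, a protein of growing microtubule ends, at distances of 53406 and 20286 bases. In A549 cells, MAPRE3 rose by a log2 fold change of 0.33 (SE 0.0682, adjusted p = 0.00171) beside the 0.30 of DPYSL5, and CENPA fell, at -0.21 (SE 0.0598, adjusted p = 0.0105). In H446 cells, where DPYSL5 was below the filter, CENPA rose, at 0.79 (SE 0.0537, adjusted p = 3.04e-06), and MAPRE3 was not called (-0.22, adjusted p = 0.109). EVC, which overlaps CRMP1, had an FPKM of 3.29 to 4.11 in BEAS-2B libraries, where CRMP1 was listed at 0. In A549 cells, where CRMP1 was not called, EVC rose by a log2 fold change of 0.18 (adjusted p = 0.0262). PNMA2, 159 bases from DPYSL2, was not called in H446 cells (-0.13, adjusted p = 0.0804) or A549 cells (0.07, adjusted p = 0.261).

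The genes most like each member over the 18 libraries were taken by Pearson's r of log2(FPKM + 1) among 13091 other genes. The points share 3 lines, so r describes mostly the differences between lines. For DPYSL4, the nearest were INSYN2 (r = 0.997), IGSF9B (r = 0.994) and SOX2 (r = 0.994), all with means under 0.1 in BEAS-2B and H446 groups. In A549 cells, the mean FPKM of INSYN2 was 1.79 in the controls, against 3.74 in the irradiated libraries, that of SOX2 1.40 and 2.41. For DPYSL5, they were LRRC4B, MAGED4 and MAGED4B, each at r = 0.999, of which MAGED4 and MAGED4B had equal group means. HPGD (r = 0.999), BICC1 (r = 0.999) and NRCAM (r = 0.998) were nearest to DPYSL3, and TNS4 (r = 0.999), TESC (r = 0.997) and CHST11 (r = 0.996) to CRMP1. For DPYSL2, IQSEC2 (r = 0.975) and NUDT19 (r = 0.974) were among the nearest. Among the members, r was 0.984 between DPYSL3 and DPYSL5, 0.978 between DPYSL4 and DPYSL5 and 0.572 between CRMP1 and DPYSL4.

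Genes that act with the family were followed as lists, starting with the ligands. The counts below stand beside 38.4% of all genes called in H446 and 51.7% in A549 cells, and with so few genes per list a count near those shares is not a result about the list. Under the alternatives, 32 of 135 list counts in H446 and 22 of 135 in A549 cells changed by more than 1.5 times. Of the class 3 semaphorins tested, 2 rose and 2 fell of 4 in H446 cells, with a median log2 fold change of 0.02 beside -0.03 over all genes, and 1 rose of 6 in A549 cells, with a median of 0.08 beside -0.004. SEMA3F, at 144.76 in H446 controls the most abundant ligand there, fell in H446 (-0.24, SE 0.0358, adjusted p = 0.000691) and rose in A549 cells (0.47, SE 0.0774, adjusted p = 0.000314). The difference between these responses was 0.71 (SE 0.125, adjusted p = 0.000306). Of the receptors, the neuropilins, plexins and L1CAM, 3 fell of 6 in H446 cells (median -0.14) and 4 rose and 1 fell of 7 in A549 cells (median 0.17). Each A549 control had 7 receptors at an FPKM of at least 1, and each irradiated A549 library 6. A receptor that passed the filter only through the controls would have its fall fixed by the filter, so the 1 fall is not read as a result. PLXND1 fell in H446 (-0.42, adjusted p = 9.26e-05) and rose in A549 cells (0.30, adjusted p = 0.00286), with a difference of 0.72 (adjusted p = 0.000798). In A549 cells NRP2 rose with a log2 fold change of 0.35 (adjusted p = 5.78e-05).

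The kinases that phosphorylate the family were listed together with CDK5R1 and CDK5R2, which are activators of CDK5 and no kinases themselves. Of this list, 3 rose and 1 fell of 7 tested in H446 cells (median 0.13). In A549 cells, 3 rose, CDK5R2 among them (0.35, adjusted p = 0.0123), and 1 fell of 10 (median -0.01). Each A549 control had 9 of the 10 genes at an FPKM of at least 1, and each irradiated library all 10. A gene that passed the filter only through the irradiated libraries would have its rise fixed by the filter. The count of rises in A549 cells is therefore not read as a result. CDK5, the kinase that primes DPYSL2, fell in H446 (-0.19, SE 0.06, adjusted p = 0.0292) and rose in A549 cells (0.26, SE 0.0682, adjusted p = 0.00755), with a difference of 0.45 (adjusted p = 0.00282). Of the binding partners, 4 rose and 1 fell of 9 in H446 cells (median 0.08) and 2 rose and 3 fell of 9 in A549 cells (median -0.04). TUBA1A, an alpha-tubulin, rose in H446 (0.65, adjusted p = 8.74e-06) and also in A549 cells (0.36, adjusted p = 2.15e-05). Of the neuronal cytoskeleton genes, 2 rose and 2 fell of 5 in H446 (median 0.06) and 3 rose and 1 fell of 7 in A549 cells (median 0.03), among them INA, an intermediate filament protein, in A549 (0.53, adjusted p = 1.57e-06). DCLK1, 1 of the 2 that fell in H446 cells, had an FPKM of 1.2 to 1.36 in the controls and 0.83 to 0.9 after irradiation. It passed the filter through the controls alone, so its fall is not read as a result.

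Of 4 pyrimidine enzymes tested, 0 rose and 2 fell in H446 (median -0.23) and 0 rose and 1 fell in A549 cells (median -0.14). CAD, which starts pyrimidine synthesis, fell in both, with log2 fold changes of -0.43 (adjusted p = 6.6e-05) and -0.13 (adjusted p = 0.0285). Of the mesenchymal state genes, 2 rose of 7 in H446 (median 0.07) and 1 rose and 3 fell of 8 in A549 cells (median -0.08), with SNAI2 higher in H446 (0.36, adjusted p = 0.0022) and lower in A549 cells (-0.44, adjusted p = 0.000135). Of the paralogous neighbours, 1 fell of 2 in H446 (median -0.33) and 2 rose and 1 fell of 4 in A549 cells (median 0.08). Of the p53 target genes, 2 rose and 4 fell of 20 in H446 cells (median -0.01), where GDF15 was lower (-0.59, adjusted p = 6.13e-06). Each gene named here as risen or fallen in H446 or A549 cells had 3 of 3 irradiated libraries beyond the range of the controls. Most were named for a large change past the threshold, so this separation follows in part from that choice and is no further support. The share of all genes so separated was not computed. In BEAS-2B cells with all libraries, limma called 0 genes of any of these lists, as it called 0 of all genes, with 0 to 2 genes per list at an unadjusted p under 0.05 outside the p53 list and list medians from -0.12 for the paralogous neighbours to 0.65 for the p53 target genes. Without the irradiated replicate 2, which was left out for its p53 target values, 18 p53 target genes and 1 mesenchymal state gene, SNAI2 (1.30, SE 0.109, adjusted p = 0.000137), were called higher and 0 genes of the other lists, with list medians from -0.13 for the paralogous neighbours to 0.89 for the p53 target genes.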

How the data were processed

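Poly(A) RNA of 18 libraries was sequenced by the authors on a BGISEQ-500, with reads of 50 bases from a single end. The authors deposited a normalized value per gene and library, treated here as FPKM. The unit was inferred from the values, whose totals differ between libraries and whose smallest steps are larger in short genes. The submitters' processing notes name HISAT2 2.0.4, Bowtie2 2.2.5, RSEM 1.2.12 and hg38, with no role or order. The values are no counts. Depth was estimated, from the whole-read steps between values of genes with a single transcript, at 13200000 to 15300000 reads per library, and read numbers in the text follow from that estimate.

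Values were taken to log2(FPKM + 1), a scale that understates fold changes of genes near or under 1. Genes that reached an FPKM of 1 in 3 or more of the libraries compared were tested with limma 3.58.1 (lmFit, eBayes with a trend) in R 4.3.3, and p-values were adjusted by Benjamini-Hochberg over all genes tested, with a threshold of 0.05. Each line had a fit of its own, the 9 control libraries shared 1 fit, and differences in response came from 1 fit of all 18 libraries over genes that met the filter in any line. Members below the filter were given an exact two-sided permutation test over libraries and a limma fit without the filter.

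The members, the lists and the rule for named genes were chosen with earlier results of these data known. Besides the members, up to 4 genes per list and comparison with the largest change past the threshold, the most abundant gene of a list in a line, up to 3 genes most alike and the nearest genes on either side were named. Alternatives were quantile normalization, equal totals per library (TPM), a pseudocount of 0.1, no filter, a strict filter (every library at an FPKM of 1 or more), no trend, the replicate number as a block, removal of the loess trend (span 0.5) on GC content, all 18 libraries in 1 fit, and each library left out in turn. The scripts were tested on simulated data. Positions of the members and transcripts are those of GENCODE 29 on GRCh38. Promoters and the distances to neighbouring genes are from RefSeq. Python 3.11.15, pandas 2.3.3, numpy 2.4.6, scipy 1.17.1, Biopython 1.88 and matplotlib 3.10.9 were used.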

Additional observations from a re-analysis of the deposited data

Results flagged for a closer look

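Over all 13071 genes tested, limma called 34.6% in A549 minus H446, 30.6% in BEAS-2B minus A549 and 22.7% in BEAS-2B minus H446. Beside those shares, the number of members called is not by itself a result about the family. It also covers CRMP1 against BEAS-2B, where CRMP1 was listed at 0. Of 15 differences in response between lines (5 members in 3 comparisons), 4 passed the threshold of the test of the difference itself in limma. For DPYSL4 these were BEAS-2B minus A549, at -0.61, and A549 minus H446, at 0.81, as log2 fold changes. For DPYSL5 they were BEAS-2B minus A549, at -0.32, and A549 minus H446, at 0.31. The comparisons share the libraries of A549, and both genes passed the filter on low values through A549 alone, where they are high, so that these differences are not read as a result about the lines. With a pseudocount of 0.1, 0 of the 4 passed in limma. In the same order, they were then 0.009 (adjusted p = 0.994) and 0.96 (adjusted p = 0.197) for DPYSL4 and -0.51 (adjusted p = 0.13) and 0.46 (adjusted p = 0.159) for DPYSL5, so that 3 of the 4 were larger than with a pseudocount of 1 and BEAS-2B minus A549 of DPYSL4 was near 0. The cause was not tested.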

How the results depend on the processing

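Of 644 log2 fold changes of members under an alternative, 593 kept direction and side of the threshold, 14 passed it, 13 no longer did and 24 changed sign; the cause was not tested unless named here. DPYSL3, DPYSL4 and DPYSL5 in A549 and DPYSL2 in H446 cells were called under each of 15 alternatives. Of 405 counts of list genes called under an alternative, 64 changed by more than 1.5 times, 32 in H446, 22 in A549 and 10 in BEAS-2B cells. Depth limits DPYSL4 and DPYSL5 in BEAS-2B and H446 cells, at some 11.2 reads per library or fewer for DPYSL4.

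Counts of members called, which were 2 in H446 cells, became 1 under quantile normalization, TPM, no filter, the replicate block and GC removal, and 1 to 2 with a library left out (1 without control replicates 1 or 2 or irradiated replicates 1 or 2). A549 cells, at 3, gave 3 to 4, with 4 without irradiated replicate 1. Under the strict filter (every library at an FPKM of 1 or more), the unirradiated comparisons each gave 1, in place of 3 for H446 against BEAS-2B and 5 for those with A549, because fewer members were tested. Leaving out any A549 control gave 3 in place of 5 in the comparisons with A549 (3 to 5), since DPYSL4 and DPYSL5 were then not tested. Differences in response went from 0 to 1 for BEAS-2B minus H446 under the block and 0 to 1 with a library left out (1 without BEAS-2B control replicate 2, BEAS-2B irradiated replicates 2 or 3, or H446 irradiated replicate 1), from 2 to 0 for BEAS-2B minus A549 with a pseudocount of 0.1 and the strict filter, and from 2 to 0 for A549 minus H446 with a pseudocount of 0.1, 1 with the strict filter and 1 after GC removal (2 to 3 with a library left out). Members below the filter went from 0 to 1 without the irradiated BEAS-2B replicate 2 (0 to 1).

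Each range covers the libraries left out in turn. Signs changed within lines for DPYSL2 in BEAS-2B (-0.031 without control replicate 3, -0.065 without irradiated replicate 2, range to 0.202), CRMP1 in A549 (-0.014 without control replicate 3, -0.03 without irradiated replicate 3, range to 0.082) and, below the filter, DPYSL3 in BEAS-2B (-0.003 without control replicate 3, range to 0.105), DPYSL5 in BEAS-2B (0.004 without control replicate 2, range from -0.037) and DPYSL4 in H446 (-0.031, -0.009 and -0.026 without control replicates 1 and 2 and irradiated replicate 2, range to 0.07). H446 against BEAS-2B controls gave 0.043 for DPYSL5 after GC removal and -0.012 for DPYSL4 without H446 control replicate 3 (range to 0.089). BEAS-2B minus H446 gave, for DPYSL5, 0.003 under quantile normalization, 0.014 without BEAS-2B control replicate 2 and 0.007 without irradiated replicate 3 (range from -0.027), and for DPYSL4 -0.095 after GC removal. BEAS-2B minus A549 gave, for DPYSL2, 0.006 under TPM, 0.099 without BEAS-2B control replicate 2, 0.012 and 0.102 without irradiated replicates 1 and 3, and 0.032 without irradiated A549 replicate 3 (range from -0.164), for DPYSL4 0.009 with a pseudocount of 0.1, and for CRMP1 0.014 and 0.03 without A549 control replicate 3 and irradiated replicate 3 (range from -0.082). A549 minus H446 gave -0.012 for DPYSL3 with a pseudocount of 0.1.

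With the replicate number as a block, limma called 439 genes in BEAS-2B in place of 0. The correlation between the control and irradiated deviations of the same number was -0.125, 0.324 and 0.311 in BEAS-2B, 0.19, 0.01 and 0.082 in H446 and 0.01, -0.055 and -0.099 in A549 cells, not above 0.1 throughout, so the libraries share a number and were not treated as paired. BEAS-2B also gave 1 gene with no filter, 822 with all 18 libraries in 1 fit and 233 without the irradiated replicate 2. BEAS-2B minus H446, at 2971 genes, gave 1356 after GC removal, 1811 without BEAS-2B control replicate 1 and 4532 without BEAS-2B irradiated replicate 3.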
